A study of Homo sapiens with 6 samples.

Results

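The E2F transcription factors and the pocket proteins that bind them were read out of the transcriptome of 786-O, a kidney cancer cell line of the clear cell type that lacks functional VHL, after stable expression of a short hairpin RNA (shRNA) against METTL3, compared with stable expression of a control shRNA. The members were the rows whose gene symbol was E2F1 to E2F8, RB1 or RBL1, which gave 10 genes of the 61860 in the deposited tables, and all 10 passed the filter on low counts that left 18740 genes. Each group held 3 libraries of ribosomal RNA-depleted total RNA, called A, B and C after the letters of the deposited columns. METTL3 is the catalytic subunit of the enzyme that places N6-methyladenosine on mRNA. The title of the series places this mark in kidney tumours rich in L-2-hydroxyglutarate, and the design sets cells with less METTL3 beside their controls. Both groups carried an shRNA, and the labels give neither the number of hairpins or clones nor the time after transduction. Nor do they say whether separate cultures were used within a group. The p-values therefore cover the spread between these libraries alone, and that spread may be technical.

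E2F factors bind a short GC-rich site in promoters of genes for DNA replication and the cell cycle, mostly as dimers with a DP protein. In textbooks E2F1, E2F2 and E2F3 are the activators, whereas E2F4 to E2F8 are the repressors. RB1 and its relatives RBL1 (p107) and RBL2 (p130), the pocket proteins, hold E2F factors in check until cyclin-dependent kinases phosphorylate them in G1. E2F1 is itself an E2F target, and E2F7 and E2F8, which bind DNA without a DP partner, feed back on E2F1.

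METTL3 itself, the check of the labels, received 1064, 956 and 1145 counts in the knockdown libraries and 3874, 4060 and 4141 counts in the control libraries, and fell by 71.2%. Exons of METTL3 overlap those of TOX4 on the opposite strand, so reads of both genes may be mixed if counting was not strand-specific. Libraries held from 100534896 to 103624456 counts. Renal epithelial markers were present, with 8 of 9 at 1 FPKM or more in every library (PAX8 from 73.17 to 108.85 FPKM). Of the leukocyte markers CD3E was listed at 0 and PTPRC reached at most 0.03 FPKM, but CD68, also a lysosomal protein of other cells, made the summed level 76.6 to 85.3 FPKM in the knockdown group and 40.3 to 47.6 FPKM in the control group. Endothelial markers summed to at most 0.05 FPKM, and fibroblast markers to 0.27 to 0.48 FPKM in the knockdown and 0.54 to 1.22 FPKM in the control group. Mitochondrially encoded genes held 7.77% to 8.50% of counts in the knockdown and 4.23% to 4.75% in the control libraries, and leaving them out changed no member's call (log2 fold change 0.92 for E2F1 and −0.39 for E2F4 without them).

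Neither class moved as a block. Of the 3 activators, E2F1 rose to 1.89-fold its control level, E2F3 fell slightly and E2F2 did not pass the test. Of the 5 repressors, E2F7 and E2F8 rose, E2F4 fell, and E2F5 and E2F6 did not pass. RB1 and RBL1 did not pass either. The test was edgeR's quasi-likelihood test with Benjamini-Hochberg adjustment over all 18740 genes, at an adjusted p under 0.05. It called 5 of the 10 members, 3 higher and 2 lower, where it called 33.5% of all genes tested (16.5% higher and 16.9% lower), and read against that background the number called is no result about the family as a whole. In bulk RNA, fewer cells of a kind, or in a phase, and less RNA per cell cannot be told apart. The median log2 fold change was 0.17 over the 10 members and −0.0030 over all genes tested.

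Before the results, the promoter sequences of the family are shown because several members are known to be E2F targets themselves. Sequences are from RefSeq on GRCh38.p14, 5′ to 3′ on the strand of the gene, from 100 bases before to 40 bases after the annotated start site. Capitals mark the E2F words TTTGGCGC, TTTCCCGC, TTTCGCGC and TTTGCCGC and the CHR words TTTGAA and TTCGAA, searched on both strands, the CHR being an element of late cell cycle promoters. E2F1 (minus strand of chr20:33686346-33686485), RBL1 (minus strand of chr20:37095958-37096097), E2F2 (minus strand of chr1:23531194-23531333) and E2F3 (plus strand of chr6:20401779-20401918) are shown because they hold an E2F word. E2F4 (plus strand of chr16:67192055-67192194) and E2F7 (minus strand of chr12:77065530-77065669) are shown because both genes passed the test and their windows held none of these words.
E2F1: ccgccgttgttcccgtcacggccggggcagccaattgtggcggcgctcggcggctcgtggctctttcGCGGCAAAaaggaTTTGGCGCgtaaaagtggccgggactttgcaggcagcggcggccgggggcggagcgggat
RBL1: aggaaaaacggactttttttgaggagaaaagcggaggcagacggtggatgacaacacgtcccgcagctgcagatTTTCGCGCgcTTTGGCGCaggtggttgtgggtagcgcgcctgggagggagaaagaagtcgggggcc
E2F2: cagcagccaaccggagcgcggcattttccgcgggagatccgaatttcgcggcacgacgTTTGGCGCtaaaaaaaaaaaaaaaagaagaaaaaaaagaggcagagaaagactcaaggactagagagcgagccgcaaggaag
E2F3: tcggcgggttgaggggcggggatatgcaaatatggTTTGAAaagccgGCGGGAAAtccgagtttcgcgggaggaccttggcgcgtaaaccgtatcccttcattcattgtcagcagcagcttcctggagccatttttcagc
E2F4: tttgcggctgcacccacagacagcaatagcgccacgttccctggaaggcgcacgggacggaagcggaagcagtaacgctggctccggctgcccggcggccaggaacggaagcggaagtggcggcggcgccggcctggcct
E2F7: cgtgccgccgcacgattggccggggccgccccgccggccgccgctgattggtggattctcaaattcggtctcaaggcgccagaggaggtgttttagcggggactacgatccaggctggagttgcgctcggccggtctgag

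The E2F1 promoter held 2 E2F words, one reading TTTGGCGC that begins 20 bases before the start site and one reading TTTGCCGC on the opposite strand. RBL1 also held 2, TTTCGCGC and TTTGGCGC, whose first bases lie 10 bases apart at −26 and −16. E2F2 held TTTGGCGC at −42, and E2F3 held TTTCCCGC on the opposite strand at −53 beside the CHR word TTTGAA at −65. The windows of E2F4, E2F6 and E2F7, which run from 250 bases before to 50 bases after the start site, held none of the words. Thus 4 of the 7 members with a window near the start of the gene held an E2F word, compared with 3.31% of all 35116 windows. Those windows, of 27305 genes, were not limited to the start of a gene, so the 2 shares are not fully alike. The RB1 window in the table lies 172724 bases from the start of the gene and was left out. A second E2F3 window, 1708 bases from the start of that gene, held none of the words and was not counted among the 7, and E2F5 and E2F8 were not matched. Among promoters that hold the word, E2F1 was higher, E2F3 lower, and RBL1 and E2F2 did not pass, while E2F7 and E2F4, without the word, moved in opposite directions. Only these exact words were searched, so a window without them may still hold an E2F site of another sequence.

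E2F1 (ENSG00000101412, minus strand of chromosome 20, 33675683 to 33686404) is the activator that drives S-phase entry. Its level in deposited FPKM (fragments scaled by transcript length and library total) was 17.09, 17.90 and 14.96 in METTL3 knockdown libraries A, B and C, and 9.53, 10.39 and 8.71 in control libraries A, B and C. Every knockdown library lay above every control library. On the count scale, E2F1 received 41.8 ± 4.58 CPM (counts relative to the library total after TMM adjustment) in the knockdown group and 22.2 ± 2.31 CPM in the control group (SD, n = 3 each). The log2 fold change was 0.92 (SE 0.10, edgeR adjusted p = 6.6e-05), an 88.6% rise with a 95% interval from 1.63-fold to 2.19-fold. By p-value E2F1 stood at rank 107 of the 18740 genes.

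E2F2 (ENSG00000007968, minus strand of chromosome 1, 23506430 to 23531220), the least abundant activator here, was listed at 0.78, 0.90 and 0.64 FPKM in the knockdown libraries and at 0.69, 0.75 and 0.63 FPKM in the control libraries. The groups overlapped. The log2 fold change of 0.30 (SE 0.15, edgeR adjusted p = 0.136) had a 95% interval from −0.02 to 0.63, which includes no change and a rise of 1.54-fold. Without knockdown library C it passed (0.44, edgeR adjusted p = 0.0255).

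E2F3 (ENSG00000112242, plus strand of chromosome 6, 20401906 to 20493715) is transcribed from alternative promoters, which gene counts do not separate. Its level was 4.29, 4.79 and 5.22 FPKM in the knockdown libraries and 5.87, 6.10 and 6.14 FPKM in the control libraries. All knockdown values were below all control values. E2F3 fell by 15.1% (log2 fold change −0.24, SE 0.08, edgeR adjusted p = 0.0355). This call was lost in the fits without knockdown library A or B or any 1 of the control libraries (log2 fold change from −0.18 to −0.25, edgeR adjusted p from 0.0599 to 0.108). It was also lost with no filter on low counts (edgeR adjusted p = 0.0523) and in limma on log2(FPKM + 1) with no filter (adjusted p = 0.0686).

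**Figure D1:**
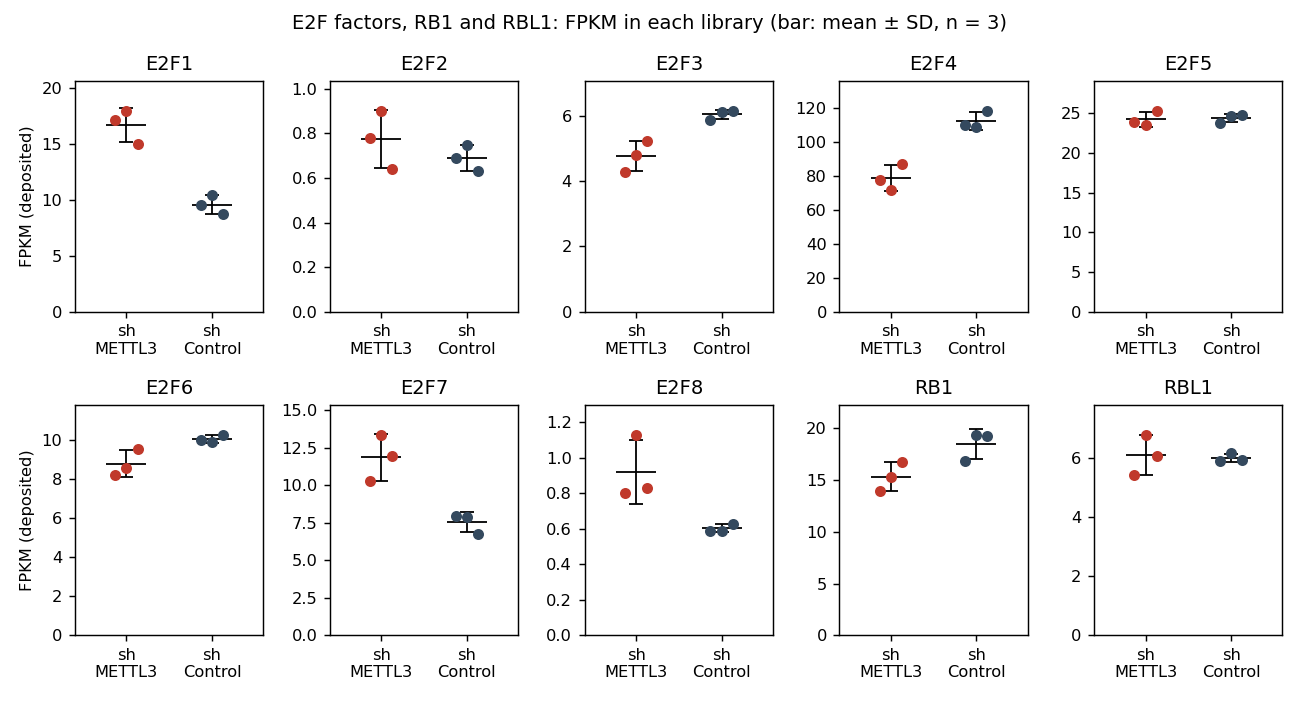
Deposited FPKM (y axis, from 0, a separate scale for each gene) of the 8 E2F factors, RB1 and RBL1 in the 3 METTL3 knockdown and the 3 control libraries, each point a library, the bar and whiskers the mean ± SD. E2F1, E2F7 and E2F8 lie higher in every knockdown library, E2F3, E2F4, E2F6 and RB1 lower, and E2F2, E2F5 and RBL1 overlap.

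Among the repressors, E2F4 (ENSG00000205250, plus strand of chromosome 16, 67192169 to 67198918) is the main E2F of resting cells and a subunit of the DREAM complex, which represses cell cycle genes. It was the most abundant member in both groups. Its level was 77.64, 71.48 and 86.59 FPKM in the knockdown libraries, and 109.53, 108.50 and 117.88 FPKM in the control libraries. No value of the knockdown group reached the control group. E2F4 fell by 23.6% (log2 fold change −0.39, SE 0.08, edgeR adjusted p = 0.0028), with a 95% interval from 0.68-fold to 0.86-fold. It averaged 78.6 ± 7.60 FPKM in the knockdown group and 112 ± 5.14 FPKM in the control group (SD, n = 3 each).

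E2F5 (ENSG00000133740, plus strand of chromosome 8, 85177225 to 85217158), the relative of E2F4 that also pairs with pocket proteins, was separated between the groups in CPM and not in FPKM. In CPM its levels of 30.6, 29.4 and 30.4 in the knockdown libraries lay above those of 24.2, 28.4 and 26.3 in the control libraries. In FPKM it stood at 23.93, 23.47 and 25.24 in the knockdown libraries and at 23.77, 24.57 and 24.73 in the control libraries, and the groups overlapped. The log2 fold change from counts was 0.20 (SE 0.08, edgeR adjusted p = 0.0737), and over the alternatives it ran from −0.01 to 0.26 without passing. Exons of E2F5 overlap those of C8orf59 on the opposite strand. The sources used here do not say if counting was strand-specific, so reads of such pairs may be mixed.

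E2F6 (ENSG00000169016, minus strand of chromosome 2, 11444375 to 11466177) lacks the pocket-binding part of the other E2F factors and represses through Polycomb-type complexes. It stood at 8.22, 8.59 and 9.57 FPKM in the knockdown libraries and at 10.01, 9.89 and 10.28 FPKM in the control libraries. The groups did not overlap, yet the log2 fold change of −0.21 (SE 0.09, edgeR adjusted p = 0.0739) did not pass. It passed with scaling by library size alone (−0.32, edgeR adjusted p = 0.0198) and without knockdown library C (−0.28, edgeR adjusted p = 0.0198).

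E2F7 (ENSG00000165891, minus strand of chromosome 12, 77021247 to 77065580) and E2F8 are the atypical repressors, made in S phase. E2F7 stood at 10.26, 13.36 and 11.97 FPKM in the knockdown libraries, and at 7.93, 7.91 and 6.77 FPKM in the control libraries. All 3 knockdown values were higher. Its log2 fold change was 0.79 (SE 0.10, edgeR adjusted p = 0.00019), a rise of 73.1% that placed E2F7 at rank 348 by p-value.

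E2F8 (ENSG00000129173, minus strand of chromosome 11, 19224063 to 19241620) was near the bottom of the family in level. It received 263, 329 and 281 counts in the knockdown libraries and 198, 200 and 214 counts in the control libraries. In FPKM this was 0.80, 1.13 and 0.83 in the knockdown libraries and 0.59, 0.59 and 0.63 in the control libraries, so the groups did not overlap on either scale. E2F8 rose by 56.8% (log2 fold change 0.65, SE 0.14, edgeR adjusted p = 0.0035). Its call was lost in limma on log2(FPKM + 1) and on log2(FPKM + 0.1), with log2 fold changes of 0.26 and 0.52 and adjusted p of 0.0548 and 0.0561, and on log2(FPKM + 1) with no filter (0.26, adjusted p = 0.117). Its exons overlap those of AC009652.2 on the opposite strand.

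Neither pocket protein among the members passed the test. RB1 (ENSG00000139687, plus strand of chromosome 13, 48303726 to 48599436), the retinoblastoma tumour suppressor, stood at 13.95, 15.29 and 16.69 FPKM in the knockdown libraries and at 16.78, 19.34 and 19.21 FPKM in the control libraries. The highest knockdown value lay just under the lowest control value, whereas the groups overlapped in CPM. Its log2 fold change was −0.17 (SE 0.08, edgeR adjusted p = 0.117), with a 95% interval from 0.79-fold to 1.00-fold, and it passed as lower with library size scaling (−0.28, edgeR adjusted p = 0.0298) and in limma on log2(FPKM + 1) (−0.25, adjusted p = 0.0495).

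RBL1 (ENSG00000080839, minus strand of chromosome 20, 36996349 to 37095995), itself an E2F target, stood at 5.42, 6.78 and 6.08 FPKM in the knockdown libraries and at 5.90, 6.17 and 5.92 FPKM in the control libraries. The control values lay within the range of the knockdown values. Its log2 fold change of 0.14 (SE 0.09, edgeR adjusted p = 0.251) had a 95% interval from −0.05 to 0.32, which excludes a change as large as that of E2F1 or E2F7. Exons of RBL1 overlap those of AL136172.1 on the opposite strand.

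**Figure D2:**
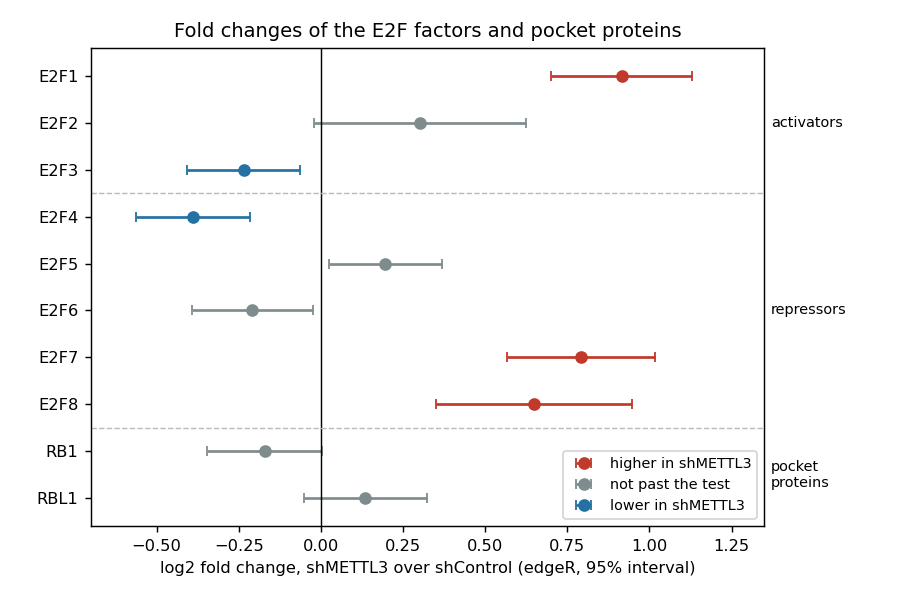
Log2 fold change of METTL3 knockdown over control libraries (x axis, edgeR, whiskers the 95% interval, not adjusted for multiple tests) for each member, grouped as activators, repressors and pocket proteins. E2F1, E2F7 and E2F8 were higher and E2F3 and E2F4 lower past the adjusted threshold, so that both E2F classes hold members of either direction.

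In total 7 of the 10 members had CPM values that did not overlap between the groups, 4 above and 3 below, where this was so for 47.4% of all genes tested (23.4% above and 23.9% below). The order of levels, which FPKM allows because it is scaled by transcript length, was E2F4, E2F5, E2F1, RB1, E2F7, E2F6, RBL1, E2F3, E2F8 and E2F2 in the knockdown group. In the control group it was E2F4, E2F5, RB1, E2F6, E2F1, E2F7, E2F3, RBL1, E2F2 and E2F8. Neighbours whose libraries overlapped were E2F1 and RB1, and E2F8 and E2F2, in the knockdown group. In the control group they were E2F6 and E2F1, E2F3 and RBL1, and E2F2 and E2F8. E2F1 and E2F7 thus both stood above E2F6 in every knockdown library, where E2F7 lay below E2F6 in every control library.

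Set against each other as summed FPKM, the activators were higher and the repressors lower in the knockdown libraries. E2F1, E2F2 and E2F3 summed to 22.16, 23.59 and 20.82 FPKM in the knockdown libraries and to 16.09, 17.24 and 15.48 FPKM in the control libraries. E2F4 to E2F8 summed to 120.85, 118.03 and 134.20 FPKM in the knockdown libraries and to 151.83, 151.46 and 160.29 FPKM in the control libraries. The activators' share of all E2F transcripts was therefore 15.2% ± 1.63 in the knockdown group and 9.54% ± 0.71 in the control group (SD, n = 3 each), a description without a test. FPKM carry no TMM adjustment, and in limma on log2(FPKM + 1) the median over all genes tested was −0.094 (log2). Differences in FPKM sums between the groups hold only relative to that shift, whereas the share is taken within a library.

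These sums are led by single genes. E2F4 alone held 53.5% ± 2.77 of E2F transcripts in the knockdown group and 65.5% ± 1.40 in the control group (SD, n = 3 each), and its mean level differed by −33.4 FPKM, more than the −30.2 FPKM of the whole repressor sum. E2F7 and E2F8 together went the other way, with 12.8 ± 1.72 FPKM in the knockdown group and 8.14 ± 0.64 FPKM in the control group. Without E2F4 the activators' share was 32.7% ± 1.93 in the knockdown group and 27.6% ± 0.95 in the control group (SD, n = 3 each). E2F1 alone averaged 7.11 FPKM more in the knockdown group, where the activator sum averaged 5.92 FPKM more.

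Ratios within a library do not depend on library scaling. The FPKM ratio of E2F1 to E2F4 was 0.220, 0.250 and 0.173 in knockdown libraries A, B and C and 0.0870, 0.0958 and 0.0739 in control libraries A, B and C. The ratio of E2F7 to E2F4 was 0.132, 0.187 and 0.138 in the knockdown libraries and 0.0724, 0.0729 and 0.0574 in the control libraries. Neither ratio overlapped between the groups. In contrast, the ratio of the activator E2F1 to the repressor E2F7 was 1.42 ± 0.22 in the knockdown group and 1.27 ± 0.06 in the control group (SD, n = 3 each), and those values did overlap.

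**Figure D3:**
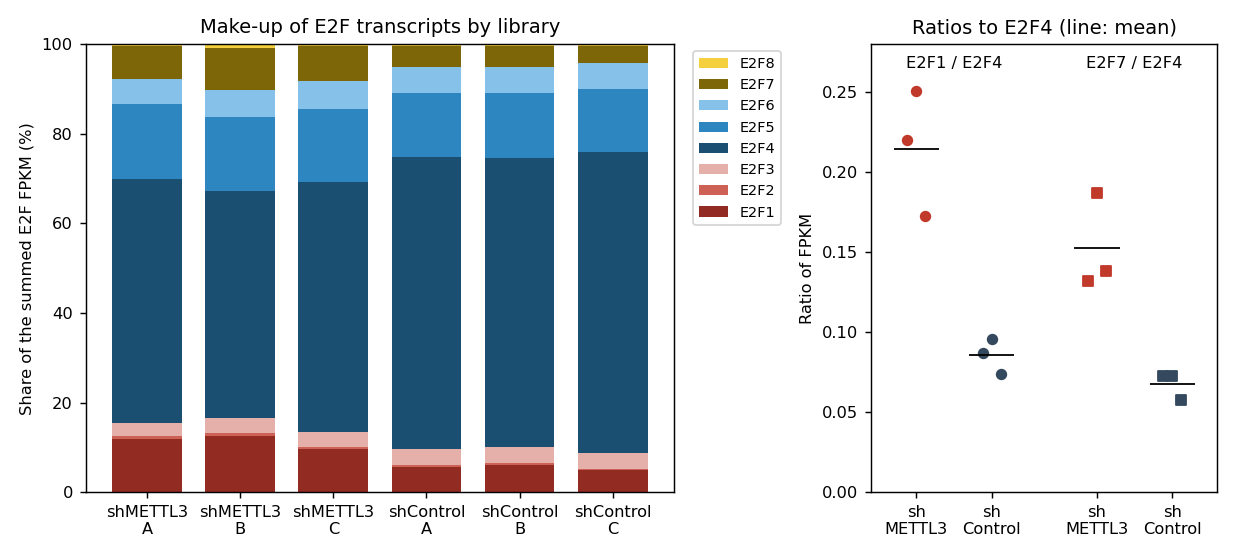
Left, share of each E2F gene in the summed E2F FPKM (y axis, %) in each library, activators E2F1 to E2F3 at the base of the bars. Right, FPKM ratios of E2F1 and E2F7 to E2F4 (y axis, each point a library, the line the mean). E2F4 holds 50.5% to 55.9% in the knockdown and 64.3% to 67.1% in the control libraries, and both ratios are higher in every knockdown library.

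The partners of the family were read from lists chosen with earlier results of these data known, and values in parentheses after their gene names are log2 fold changes. Both DP partners that were tested were higher, TFDP2 with a log2 fold change of 0.53 (SE 0.08, edgeR adjusted p = 0.0004) and TFDP1 with one of 0.22 (SE 0.08, edgeR adjusted p = 0.0431), while TFDP3 had 0 counts in every library. The call of TFDP1 was lost with library size scaling (0.11) and in every fit that left out a library, except that without knockdown library C. A list of 11 genes covered the DREAM complex and the MuvB core it shares with B-MYB and FOXM1. Of these, 5 rose, 0 fell and 6 did not pass (median log2 fold change 0.11). Thus 45.5% were called, against 33.5% of all genes tested (16.5% higher and 16.9% lower). The list leaves out the DREAM subunit E2F4, which fell (−0.39), and also E2F5, RBL1 and the DP partners, which are given above.

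FOXM1 and MYBL2, 2 of those that rose, are themselves known to be expressed in a cell cycle-dependent way. FOXM1, the activator of G2 genes, averaged 59.0 ± 7.53 CPM in the knockdown group and 23.9 ± 4.65 CPM in the control group (SD, n = 3 each; log2 fold change 1.30, SE 0.13). MYBL2, which encodes B-MYB, averaged 147 ± 20.3 CPM in the knockdown group and 85.1 ± 11.2 CPM in the control group (0.78, SE 0.11). The histone-binding subunit RBBP4 (0.41, SE 0.09) and the CHR-binding subunit LIN54 (0.35, SE 0.08) rose too, though RBBP4 lost its call in the 3 limma fits on FPKM (adjusted p from 0.0825 to 0.231). The other MuvB subunits LIN9 (−0.00), LIN37 (−0.07) and LIN52 (−0.12) did not pass, nor did the kinases DYRK1A (−0.04) and DYRK1B (0.08) or MYBL1 (0.11).

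RBL2, the pocket protein of resting cells and of the DREAM complex, passed the test where RB1 and RBL1 did not, though the difference between these genes was not tested. Its level was 10.18, 11.55 and 9.46 FPKM in the knockdown libraries and 7.23, 7.34 and 7.15 FPKM in the control libraries. Every knockdown value was higher, with a log2 fold change of 0.62 (SE 0.09, edgeR adjusted p = 0.00026). Its share of the 3 pocket protein transcripts was 32.7% ± 2.92 in the knockdown group and 22.9% ± 1.12 in the control group (SD, n = 3 each). The FPKM ratio of RB1 to RBL2 was 1.49 ± 0.24 in the knockdown group and 2.55 ± 0.20 in the control group (SD, n = 3 each). Exons of RBL2 overlap those of AKTIP on the opposite strand, which makes its counts less certain.

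Upstream of the pocket proteins, 7 of 14 tested G1 cyclins, kinases and inhibitors rose, 2 fell and 5 did not pass (median log2 fold change 0.31), so that 64.3% were called, against 33.5% of all genes. Of the 17 genes listed, CCNA2, CCNE1, CCNE2 and CDC25A (4 genes) are also in the lists of G1/S or G2/M targets given below. The counts of these lists are therefore not separate. Cyclin A2, CCNA2, had the smallest p, with 27.9 ± 3.33 CPM in the knockdown group and 12.4 ± 1.23 CPM in the control group (SD, n = 3 each; log2 fold change 1.17, SE 0.10). Its kinase CDK2 (0.62, SE 0.10) and the kinase inhibitor CDKN1B (0.39, SE 0.07) rose. The others that rose were cyclin E2 (CCNE2), CDC25A, and the inhibitors CDKN1C and CDKN2C. The 2 that fell were cyclin E1, CCNE1 (−0.64, SE 0.12), and cyclin D3, CCND3 (−0.39, SE 0.09). The kinases that phosphorylate RB1 in early G1, CDK4 (0.12) and CDK6 (−0.05), and cyclin D1, CCND1 (0.26), did not pass. For CDKN2A, whose product p16 inhibits CDK4 and CDK6, no library held more than 2 counts. CDKN2B had 0, and neither gene was tested.

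Of 14 partners of E2F6 in its repressor complexes, 0 rose and 3 fell (median log2 fold change −0.16), so that 21.4% were called, against 33.5% of all genes tested. They were the methyltransferase EZH2 (−0.34, SE 0.08) and the Polycomb subunits PCGF6 (−0.43, SE 0.10) and L3MBTL2 (−0.29, SE 0.08), and RNF2 (−0.21, SE 0.08, edgeR adjusted p = 0.0561) stood next. L3MBTL2 lost its call without knockdown library B or control library C (edgeR adjusted p of 0.0668 and 0.0590). The number lower was 7 with library size scaling or without knockdown library C. Of the 6 germline genes that E2F6 silences in mouse, SMC1B, SLC25A31 and TUBA3C reached no more than 1 count per library and could not be tested. STAG3 (−0.50), MAEL (−0.49) and TDRKH (−0.00) did not pass. Of these 3, edgeR gave 0 with an unadjusted p under 0.05, and DESeq2 also called 0.

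Of the G1/S targets of E2F factors, genes of replication and nucleotide supply, 24 of 37 rose, 2 fell and 11 did not pass, with a median log2 fold change of 0.41. Thus 70.3% were called, against 33.5% of all genes. The helicase subunit MCM4 averaged 59.8 ± 7.17 CPM in the knockdown group and 38.6 ± 3.08 CPM in the control group (SD, n = 3 each; log2 fold change 0.63, SE 0.10). The chromatin assembly subunit CHAF1B (0.65, SE 0.10) and the licensing factor CDT1 (0.80, SE 0.12) were also among the 4 with the smallest p-values. MCM4 lost its call in the 3 limma fits on FPKM (log2 fold change 0.27 to 0.28, adjusted p from 0.0938 to 0.249), and CDT1 in that on log2(FPKM + 1) with no filter (adjusted p = 0.0528). The sliding clamp PCNA (0.03) and the polymerase subunit POLA1 (−0.02) were among those not past the test. CCNE1 and UHRF1 (−0.29, SE 0.09) fell, and the call of UHRF1 was lost when knockdown library A or C, or control library A or C, was left out (adjusted p between 0.0603 and 0.106 by edgeR). The UHRF1 call was also lost in limma on log2(FPKM + 1) with no filter (adjusted p = 0.0682).

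All 28 G2/M genes held down by the DREAM complex rose (median log2 fold change 0.84), against 16.5% of all genes tested, and all 28 were higher past the test in each of the 6 fits without a library. In limma on log2(FPKM + 1) or log2(FPKM + 0.1) 27 were higher past the test, and 25 in that on log2(FPKM + 1) with no filter. The kinesin KIF20A averaged 19.3 ± 3.08 CPM in the knockdown group and 6.36 ± 0.75 CPM in the control group (SD, n = 3 each; log2 fold change 1.60, SE 0.13). CCNA2, the kinesin KIF2C (0.99, SE 0.10) and the kinase NEK2 (1.38, SE 0.14) had the next smallest p-values. These lists share genes with others (3 of the 37 and 2 of the 28), and cell cycle genes were already known to be higher in these libraries when the lists were written, so the counts describe them and test nothing.

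The words shown in capitals above were also counted in the promoters of these 2 lists. An E2F word was found in 40.9% of the 44 windows of 31 G1/S genes and in 14.3% of the 28 windows of 23 G2/M genes, against 3.31% of all windows. A CHR word was found in 64.3% of the G2/M windows and 6.82% of the G1/S windows, against 16.4% of all windows. The lists hold textbook targets, some of which are known by these very sites.

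**Figure D4:**
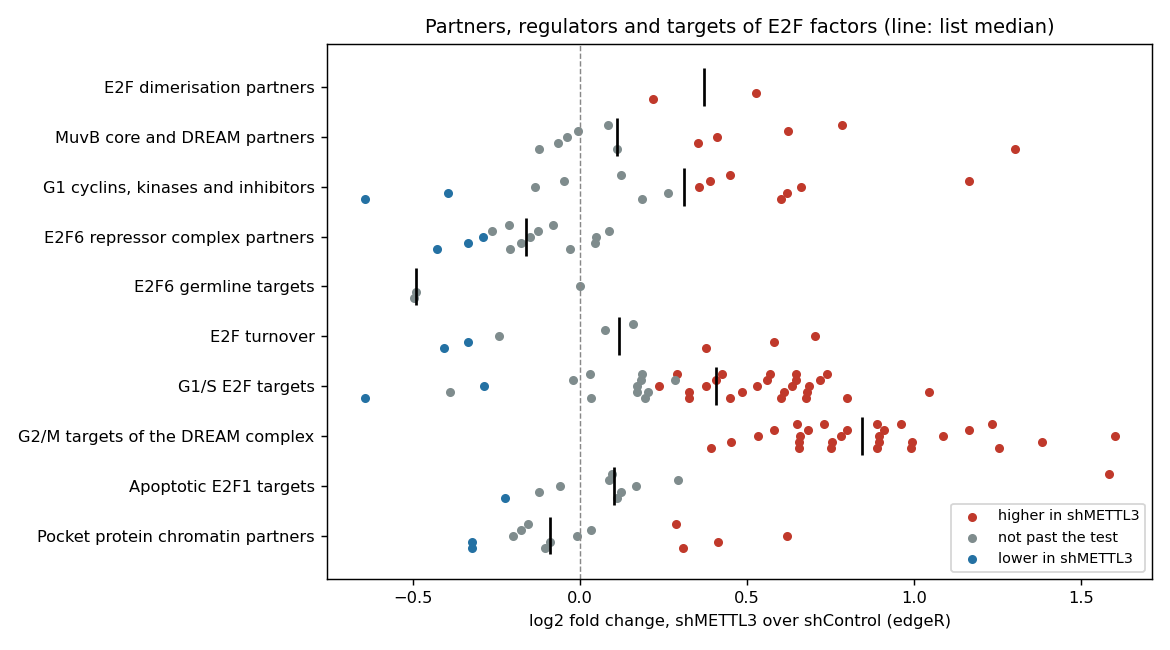
Log2 fold change of METTL3 knockdown over control libraries (x axis, edgeR) for each tested gene (points) of 10 lists around the E2F factors, with the list median as a line. All 28 G2/M genes and 24 of 37 G1/S genes lie higher past the test, against 16.5% of all genes tested. The median of the 14 partners of E2F6 is −0.16, and 3 of them lie lower past the test, against 16.9% of all genes tested.

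E2F1 is also known for targets that promote apoptosis. Of 10 tested, 1 rose, 1 fell and 8 did not pass (median log2 fold change 0.10), so that 20.0% were called, against 33.5% of all genes. The one that rose was the p53 relative TP73, an E2F1 target, with 2.69 ± 0.64 CPM in the knockdown group and 0.90 ± 0.10 CPM in the control group (SD, n = 3 each; log2 fold change 1.58, SE 0.19, edgeR adjusted p = 0.00012). In 5 of the 6 fits without a library 1 gene was called, and 3 without knockdown library C. APAF1 (0.11), the BH3-only genes BBC3 (0.17) and BCL2L11 (0.12), and MAP3K5 (0.29) did not pass.

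Of 8 genes of E2F turnover, 3 rose and 2 fell (median log2 fold change 0.12), so that 62.5% were called, against 33.5% of all genes. Cyclin F, CCNF, which marks activator E2F factors for degradation, rose (0.70, SE 0.09), as did CDC20 (0.58, SE 0.10) and SKP2 (0.38, SE 0.08), a ubiquitin ligase subunit that acts on E2F1. SKP2 lost its call in limma on log2(FPKM + 1) with no filter (adjusted p = 0.0601). The deubiquitinase USP11 (−0.41, SE 0.09) and MDM2 (−0.34, SE 0.10) fell, and MDM2 lost its call without knockdown library A or B or control library B or C (edgeR adjusted p from 0.0605 to 0.0937). Of 13 chromatin partners of pocket proteins, 4 rose and 2 fell (median −0.09), so that 46.2% were called, against 33.5% of all genes. The histone methyltransferase SUV39H1 (0.62, SE 0.08) and the remodeller SMARCA2 (0.41, SE 0.09) were higher, and ARID4A (−0.32, SE 0.09) and ARID4B (−0.32, SE 0.08), which bind RB1, were lower. ARID4B kept its call in all 17 alternatives. ARID4A lost it without knockdown library A or B or control library C (−0.26 to −0.31, edgeR adjusted p from 0.0514 to 0.0591) and in limma on log2(FPKM + 1) with no filter (adjusted p = 0.113), and SMARCA2 lost it in all 3 limma fits on FPKM (0.26 to 0.27, adjusted p from 0.124 to 0.300). Without knockdown library B, 3 of the 13 were called.

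Among 9372 genes averaging at least 10 CPM, those whose log2 CPM over the 6 libraries followed that of E2F1 most closely were CDK1 (Pearson r = 0.999), MAZ (0.999), ATG16L2 (0.998), CCNA2 (0.998) and RTN3 (0.998). These correlations include the difference between the groups and are given as a description. Their log2 fold changes were 0.99 for CDK1, 0.36 for MAZ, 1.08 for ATG16L2, 1.17 for CCNA2 and 0.44 for RTN3. CDK1 drives entry into mitosis, and CCNA2 is one of its cyclins.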

How the data were processed

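The data are 6 RNA-seq libraries of the 786-O line. Per the submitters' processing notes, STAR 2.7.10b, Salmon and the GRCh38 build were used, with no role given, and neither annotation release nor strand setting is given in those sources. As deposited, one table gives whole-number counts and another FPKM, each over 61860 Ensembl rows and 6 columns. The shControl group is the 3 columns named for a control shRNA. The other 3, named by a number that no label explains, were taken as the METTL3 shRNA group by elimination, and METTL3 served as the check. Column letters are not tied to replicate numbers, so the letters served as the block.

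Counts as deposited were tested with edgeR 4.0.16 in R 4.3.3 (filterByExpr, TMM, quasi-likelihood test, Benjamini-Hochberg adjustment at 0.05), with limma 3.58.1 and DESeq2 1.42.0 as alternatives. The SE was derived from the F statistic. FPKM, used for levels and ratios, are the authors' values. The procedure was also run on simulated data in which far fewer genes changed than were called here, and the outcome is not given. Replicates were not duplicates: chi-square over degrees of freedom ran from 15.2 to 57.3 between libraries of 1 group. Deviations from the group mean were compared between knockdown and control libraries. With the same letter they correlated at 0.04 for A, −0.08 for B and 0.28 for C, and with different letters from −0.26 to 0.25. Positions and exon overlaps are those of GENCODE 29 (GRCh38), which lists 58308 of the 61860 identifiers. Rows with a repeated symbol (1292) were named by identifier.

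The members and lists were chosen with earlier results of these data known. Named genes are METTL3, the members, up to 4 genes per list by smallest p, the 3 or fewer called against the direction of most calls in a list, and the 5 genes most like E2F1. Other list genes, such as those not past the test, were named after their values were seen. Some listed genes and markers are counted but not reported by name here.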

Additional observations from a re-analysis of the deposited data

How the results depend on the processing

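Of all genes, 3099 were higher and 3171 lower (6270 called). With library size scaling 1985 were higher and 4727 lower, and the median over all genes was −0.11 (log2), so that small changes hold only relative to it. The number called was 3271 in limma on log2(FPKM + 1) with no filter, and from 4012 (without knockdown library B) to 6589 in the fits without a library. E2F1, E2F4 and E2F7 kept their direction and call in all 17 alternatives. Log2 fold changes ran from 0.74 to 1.01 for E2F1, from −0.51 to −0.33 for E2F4 and from 0.59 to 0.89 for E2F7.

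The 10 members had 3 calls in limma on log2(FPKM + 1) with no filter and 7 with library size scaling (3 higher and 4 lower), and from 4 to 7 in the fits without a library. In that limma fit with no filter, the calls were 0 for the DP partners, 3 for the DREAM and MuvB list, 5 for G1 cyclins, kinases and inhibitors, 5 for partners of E2F6 and 12 for G1/S targets. In limma with the filter, with a pseudocount of 1 or 0.1, they were 1, 3 and 6 for the DP partners, the DREAM list and the partners of E2F6. The DP partners had 1 call with library size scaling or with no filter on low counts, and the partners of E2F6 had 7 with library size scaling. In the fits without a library, the calls ran from 1 to 2 for the DP partners, from 2 to 7 for the partners of E2F6, from 1 to 3 for apoptotic targets and from 3 to 7 for chromatin partners. The activators' share of E2F FPKM without E2F4 was 32.7% in the knockdown and 27.6% in the control group. The causes were not tested.

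Since no label says that libraries with the same letter form a pair, the replicate block is given only here. With it, 6985 of all genes, 5 members and 86 of the listed genes were called, where 6270, 5 and 81 were called without it.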

Other observations

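The number of bases of transcript implied by a gene's count, its FPKM and the library total differed between libraries for some members. For E2F6 it was 2145, 2033 and 2231 bases in knockdown libraries A, B and C and 2235, 2469 and 2295 bases in control libraries A, B and C, with no overlap between the groups. For E2F5 it was 1201, 1200 and 1190 bases in the knockdown libraries and 1021, 1204 and 1139 bases in the control libraries, so that control library A stood apart. For E2F8 it was 2874 bases in knockdown library B and between 3239 and 3336 bases in the other libraries. For E2F1 it lay between 2405 and 2412 bases in all 6 libraries. The log2 fold change of E2F5 was 0.20 with TMM, 0.08 with library size scaling and −0.01 in limma on log2(FPKM + 1). The part of the implied bases in the difference between the CPM and FPKM values of E2F5 was not tested.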
